A study of Mus musculus with 2 samples.

Results

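The zinc finger cluster of middle chromosome 7 was examined in the RNA of mouse embryonic stem (ES) cells, WT and G34R. Its members were all genes with a start from 40 to 51.8 Mb on chromosome 7 in the mm9 assembly, which gave 103 of the 26127 genes quantitated. The region was chosen by measured values, because Zfp788, Zfp141, Zfp936, Zfp715 and Zfp658 lie in it and zinc finger genes there had lower RPKM in G34R cells than in WT cells. All values below come from that same contrast and are a description, with no test. By name, 9 members were zinc finger genes, 21 were Gm-named genes, 13 carried clone names, 40 belonged to other tandem families and 20 were single-copy neighbours. The label was checked in the coding sequences of the GENCODE M1 annotation. At least 3 C2H2 zinc finger motifs were found in 19 members, comprising the 9 zinc finger genes by name, 5 Gm-named genes and 5 clone-named genes. These 19 are called the C2H2 genes. Of 22737 protein-coding genes in the annotation 626 (2.75%) reached that number of motifs.

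WT cells carry unmodified H3.3 genes, and G34R cells were labelled as targeted H3.3 G34R cells. In the study the glycine to arginine substitution at position 34 of the histone variant H3.3 sat on 1 copy of H3f3a, expressed from the endogenous promoter after a recombination by Cre, while the other H3f3a copy and both copies of H3f3b were WT. Both lines were of strain 129S1/SvImJ, were under passage 20, and were grown in medium with 15% foetal calf serum and leukemia inhibitory factor. Each line gave 1 library, so the mutation and any other difference between the 2 lines or libraries cannot be told apart, no value has a replicate, and no p-value is given.

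Many C2H2 genes in mammals encode Krüppel-associated box (KRAB) zinc finger proteins. The zinc fingers bind DNA, often within transposable elements, and the KRAB domain recruits Trim28 (KAP1), which brings the methyltransferase Setdb1 and leads to H3K9me3 and silencing of the bound element. The genes arise by tandem duplication and therefore lie in clusters of similar copies, many of which are expressed in ES cells.

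The sequence of the KRAB exon shows how the C2H2 genes are related. An exon of 127 bases that aligned without gaps was found in 17 of the 19 C2H2 genes, the others being Zfp939 and Gm2381. The protein of 15 of the 17 matched a pattern of KRAB residues. AI987944 and AW146154 did not match it. Read in the frame of Zfp936, their exons encode Y where the pattern asks for F, V or L, and its other residues are present. For this pair the name KRAB exon rests on that reading and on the length and similarity of the exon, without a match. Grouped at 90% identity or more, the exons formed a subfamily of 7 genes, a subfamily of 4, 2 pairs and 2 single genes. The 7 exons below belong to the largest subfamily, which held 5 of the 7 C2H2 genes with more than 2-fold lower RPKM in G34R cells. They were read from the mm9 genome on the coding strand, and capitals mark the bases that differ from Zfp936.
Zfp936 (chr7:50442540-50442666, plus strand): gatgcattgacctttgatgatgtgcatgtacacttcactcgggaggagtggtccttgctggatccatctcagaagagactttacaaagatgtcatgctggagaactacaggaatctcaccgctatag
Gm5595 (chr7:49920388-49920514, minus strand): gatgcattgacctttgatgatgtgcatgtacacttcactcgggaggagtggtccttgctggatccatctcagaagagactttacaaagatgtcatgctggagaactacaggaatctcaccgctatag
EU599041 (chr7:50478945-50479071, plus strand): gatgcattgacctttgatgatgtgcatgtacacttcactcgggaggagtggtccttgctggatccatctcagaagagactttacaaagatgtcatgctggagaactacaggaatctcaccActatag
9830147E19Rik (chr7:49871603-49871729, minus strand): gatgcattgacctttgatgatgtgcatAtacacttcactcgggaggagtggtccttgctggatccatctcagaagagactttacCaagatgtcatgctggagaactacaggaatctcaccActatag
Gm6871 (chr7:48803354-48803480, minus strand): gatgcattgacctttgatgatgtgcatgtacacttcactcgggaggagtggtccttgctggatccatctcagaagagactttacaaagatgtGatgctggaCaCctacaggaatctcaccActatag
Gm7221 (chr7:49838276-49838402, minus strand): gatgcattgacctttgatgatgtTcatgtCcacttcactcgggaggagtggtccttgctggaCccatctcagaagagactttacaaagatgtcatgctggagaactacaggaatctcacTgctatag
Gm17067 (chr7:49966047-49966173, minus strand): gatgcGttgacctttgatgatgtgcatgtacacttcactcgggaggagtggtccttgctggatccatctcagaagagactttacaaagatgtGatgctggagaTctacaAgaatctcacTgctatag

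In this subfamily the exons were 93.7% to 100% identical. Gm5595 and Zfp936 had 0 differences over the 127 bases although they lie on opposite strands, EU599041 differed from Zfp936 at 1 base, and Gm17067 at 5. Every stretch of 50 bases, the length of a read, within the exons of Zfp936 and Gm5595 also occurred in another of the 17 exons. The exons of the other groups were more distant, and 1 exon from each of 4 groups is shown in the same way for comparison.
AW146154 (chr7:48738203-48738329, minus strand): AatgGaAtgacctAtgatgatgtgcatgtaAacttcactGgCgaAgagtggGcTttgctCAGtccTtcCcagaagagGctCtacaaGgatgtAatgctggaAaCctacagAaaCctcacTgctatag
Zfp619 (chr7:46789163-46789289, plus strand): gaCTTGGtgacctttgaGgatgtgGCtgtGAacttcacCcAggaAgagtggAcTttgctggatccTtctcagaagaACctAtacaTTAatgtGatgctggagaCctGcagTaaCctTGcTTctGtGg
Zfp141 (chr7:49744805-49744931, minus strand): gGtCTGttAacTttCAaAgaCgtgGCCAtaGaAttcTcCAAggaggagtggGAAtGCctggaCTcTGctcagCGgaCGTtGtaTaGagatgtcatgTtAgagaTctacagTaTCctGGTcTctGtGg
Zfp819 (chr7:50867353-50867479, plus strand): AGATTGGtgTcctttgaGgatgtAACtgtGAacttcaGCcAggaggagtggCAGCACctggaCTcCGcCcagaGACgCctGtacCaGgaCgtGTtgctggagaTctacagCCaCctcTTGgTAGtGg

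The exon of AW146154 differed from that of Zfp936 at 24 of 127 bases and was 95.3% identical to that of AI987944. Those of Zfp619, Zfp141 and Zfp819 differed from Zfp936 at 33, 49 and 49 bases. Zfp141 and 2610021A01Rik formed the second pair (96.9% identical), Zfp819 grouped with Zfp715, Zfp658 and Zfp719 (90.6% to 95.3% identical), and Zfp619 and Zfp788 stood alone.

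Levels are RPKM, the read density per kilobase of transcript scaled to the size of the library, as deposited for each gene. Changes are log2 (G34R/WT RPKM) over a floor of 0.01 RPKM, and a gene was counted only with at least 0.25 RPKM in 1 of the 2 libraries. The normalisation totals were estimated from the smallest RPKM steps as 87.9 M reads in WT cells and 72.3 M reads in G34R cells, so 1 read on 1 kb of transcript was worth 0.0114 and 0.0138 RPKM. Square brackets give a 95% interval of the log2 change (exact Clopper-Pearson interval of the share of estimated reads), which covers counting error only and not the spread between cultures. H3f3a had 8.17 RPKM in WT cells, against 4.89 RPKM in G34R cells, a value that does not separate its alleles. Of 8 ES cell markers, 2 were more than 2-fold lower in G34R cells, where 9.64% of all genes past the filter were. With 8 genes, nothing is read from this count. The 2 were Nanog (127.07 to 52.24 RPKM) and Zfp42 (180.3 to 16.4 RPKM), while Klf4 was higher (25.14 to 43.71 RPKM) and Pou5f1 was at 194.34 and 189.46 RPKM. The median log2 change of the 8 was -0.04.

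Of the 103 members, 44 passed the filter and 17 of these (38.6%) were more than 2-fold lower in G34R cells, where 9.64% of all 13366 genes past the filter were. More than 2-fold higher was 1 member, against 5.79% of all genes. Lower by more than 1.5-fold were 26 members, where the share among all genes was 18.2%, and lower by any amount were 35, where it was 55.0%. The median log2 change of the 44 was -0.70, and that of all genes past the filter was -0.07. Because the region was chosen on this contrast, nothing is read from these shares. The other 59 members stayed at or under 0.23 RPKM in both libraries: 27 were listed at 0 in both, 25 were lower in G34R cells, 6 were higher and 1 was equal. The 17 members lower by more than 2-fold were 7 C2H2 genes, 6 kallikreins, Gm10351, Gm10109, Hmg1l1 and Siglec5. Of these, Klk11, Klk1b3, Klk1b5, Gm10109 and Siglec5 passed the filter only through their WT values, and Gm10109 overlaps Klk1. Those that reached 0.25 RPKM in both libraries included C2H2 genes and the kallikreins Klk1, Klk8 and Klk10.

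All 19 C2H2 genes passed the filter. Their levels ran from 0.38 to 11.84 RPKM with a median of 4.81 in WT cells, and from 0.49 to 9.56 RPKM with a median of 2.16 in G34R cells. Of the 19, 16 were lower in G34R cells, 12 by more than 1.5-fold and 7 by more than 2-fold, while 3 were higher and none of the 19 was more than 2-fold higher. The median log2 change was -0.73. Summed over the 19 genes the level was 99.6 RPKM in WT cells, against 59.5 RPKM in G34R cells, which is 59.7% of the WT sum. The counting interval lay below 0 for 16 genes and above 0 for 2 (Zfp619 and Zfp141). It lay wholly below -1 for 4 (Gm6871, Gm5595, Gm2381 and Zfp936), so the other 3 past 2-fold (AW146154, Gm7221 and EU599041) could not be told from a 2-fold difference by counting alone. All 7 of these genes had at least 1 RPKM in 1 library, where 6.42% of all genes were more than 2-fold lower. In bulk RNA, fewer cells that express a gene and less RNA of it per cell cannot be told apart.

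**Figure D1:**
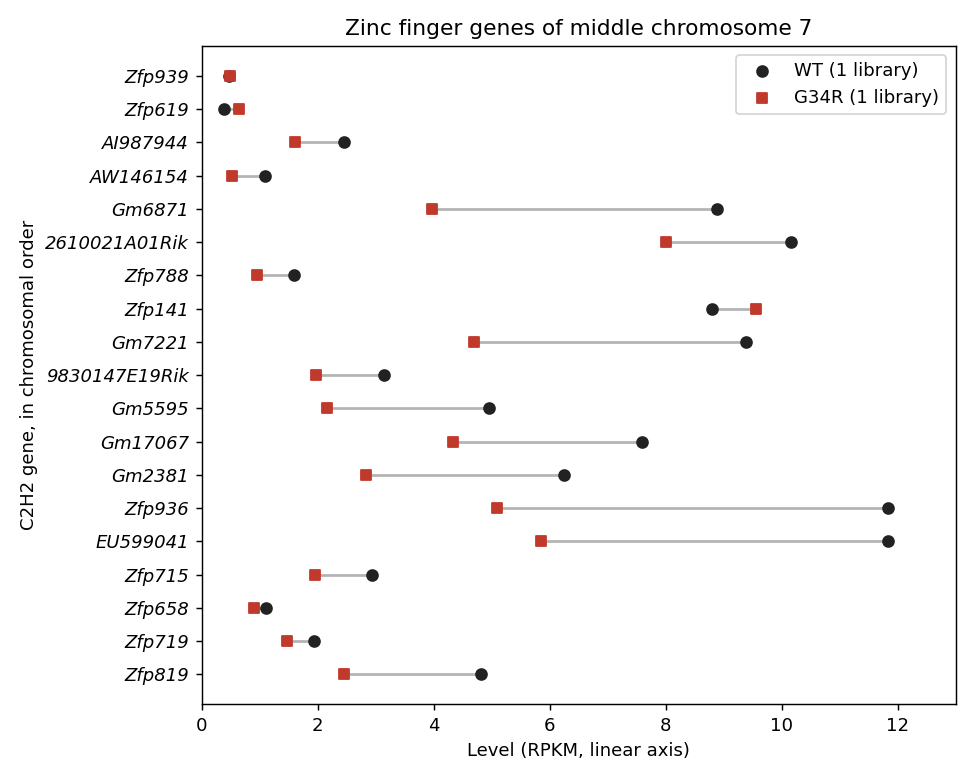
Levels of the 19 C2H2 genes in RPKM (linear axis) in WT cells (black circles) and G34R cells (red squares), 1 library each, in chromosomal order; grey lines join the 2 values of a gene. The red square lies left of the black circle in 16 genes, and right of it in Zfp939, Zfp619 and Zfp141.

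The 7 genes of the Zfp936 subfamily were all lower in G34R cells, by log2 changes of -1.22 to -0.67. Zfp936 (chr7:50442540-50445851, plus strand), which has 11 C2H2 motifs, had 11.84 RPKM in WT cells, against 5.09 RPKM in G34R cells, a log2 change of -1.22 [-1.37, -1.07]. EU599041, its neighbour, had 11.83 and 5.86 RPKM, a log2 change of -1.01 [-1.20, -0.83]. These were the highest C2H2 levels in WT cells, and both remained above Gm7221 in G34R cells. Gm7221 (Zfp977 in RefSeq) had 9.39 RPKM in WT cells, against 4.69 RPKM in G34R cells, a log2 change of -1.0 [-1.16, -0.85] that only just passes 2-fold. Gm6871 had 8.88 and 3.98 RPKM, a log2 change of -1.16 [-1.3, -1.02]. Gm5595 (Zfp975 in RefSeq), whose KRAB exon is the same as that of Zfp936, had 4.95 and 2.16 RPKM, a log2 change of -1.20 [-1.35, -1.05]. The other members of the subfamily were lower by less than 2-fold. Gm17067 had 7.59 and 4.34 RPKM, a log2 change of -0.81 [-0.91, -0.70], and 9830147E19Rik (Zfp976 in RefSeq) had 3.14 and 1.97 RPKM, a log2 change of -0.67 [-0.80, -0.54]. Summed over the subfamily the level was 57.62 RPKM in WT cells, against 28.09 RPKM in G34R cells. The estimated reads, whose sum does not depend on how reads were divided within the subfamily, numbered 10134 and 4238. Scaled to the unequal library totals, they gave a log2 change of -0.98.

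Gm2381, a C2H2 gene without the KRAB exon that RefSeq lists as a transcribed pseudogene, lies between Gm17067 and Zfp936. It had 6.24 RPKM in WT cells, against 2.83 RPKM in G34R cells, a log2 change of -1.14 [-1.26, -1.03]. The related pair further upstream was also lower. AW146154, with 12 motifs, had 1.09 and 0.52 RPKM, a log2 change of -1.07 [-1.37, -0.77], and AI987944, with 9 motifs, had 2.46 and 1.61 RPKM, a log2 change of -0.61 [-0.86, -0.37].

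The subfamily of Zfp715, Zfp658, Zfp719 and Zfp819 was lower by smaller amounts, with 0 of 4 genes past 2-fold and a sum of 10.78 RPKM in WT cells, against 6.78 RPKM in G34R cells. Zfp819 (chr7:50862539-50873655, plus strand), a KRAB zinc finger gene of pluripotent cells, had 4.81 RPKM in WT cells, against 2.45 RPKM in G34R cells, a log2 change of -0.97 [-1.14, -0.81]. Zfp715, with 18 motifs, had 2.93 and 1.96 RPKM, a log2 change of -0.58 [-0.71, -0.45]. Zfp719 had 1.93 and 1.47 RPKM, a log2 change of -0.39 [-0.56, -0.23]. Zfp658, with 21 motifs, had the smallest difference of the 4, at 1.11 and 0.90 RPKM and a log2 change of -0.30 [-0.55, -0.06]. Zfp788, whose KRAB exon grouped with no other, had 1.59 and 0.96 RPKM, a log2 change of -0.73 [-0.93, -0.53].

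The pair of Zfp141 and 2610021A01Rik was well expressed in both libraries. Zfp141 (chr7:49728756-49761096, minus strand), with 10 motifs, had 8.80 RPKM in WT cells, against 9.56 RPKM in G34R cells, a log2 change of 0.12 [0.05, 0.19]. 2610021A01Rik, with 15 motifs, had 10.17 and 8.01 RPKM, a log2 change of -0.34 [-0.42, -0.27]. Together they summed to 18.97 RPKM in WT cells, against 17.57 RPKM in G34R cells, so WT levels close to those of Gm7221 and Gm6871 went with smaller differences, with intervals that do not overlap. Zfp619 and Zfp939, at the centromeric end, were low and were the other genes with higher RPKM in G34R cells. Zfp619, which has the most motifs (33), had 0.38 and 0.65 RPKM, a log2 change of 0.77 [0.51, 1.05]. Zfp939 had 0.47 and 0.49 RPKM on 38 and 33 estimated reads, and its log2 change of 0.06 [-0.64, 0.79] was not distinguishable from 0 at this depth.

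**Figure D2:**
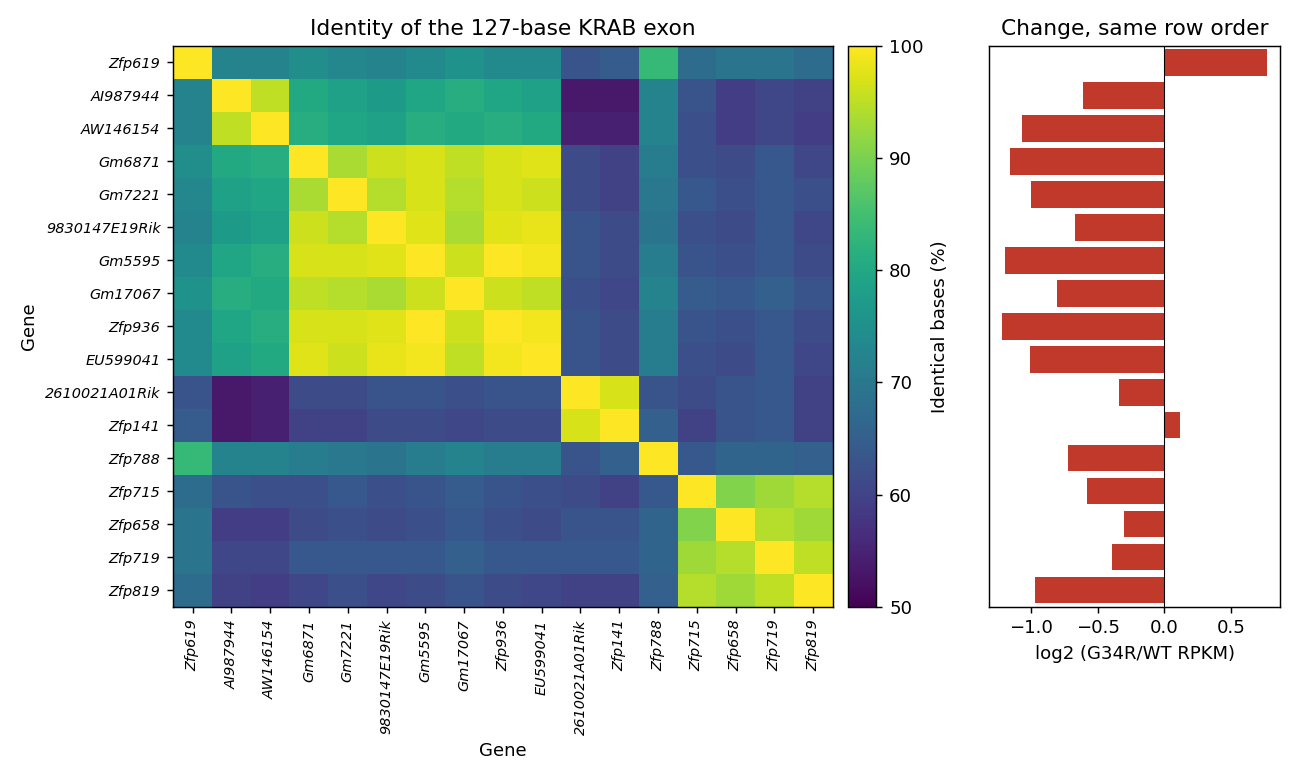
Left, percentage of identical bases in the 127-base KRAB exon for each pair among 17 C2H2 genes, ordered by subfamily; right, log2 (G34R/WT RPKM) of the same genes in the same row order, from 1 library per cell line. The block of 7 similar exons from Gm6871 to EU599041 (93.7% to 100% identical) has log2 changes of -1.22 to -0.67, and the pair of 2610021A01Rik and Zfp141 has -0.34 and 0.12.

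Similar copies share sequence, and a 50-base read from a shared stretch can be placed on another copy. Of all 50-base windows in the merged exons of each C2H2 gene, the share that occurred elsewhere in mm9 ran from 0% in Zfp715 to 53.1% in Gm5595. The 7 genes lower by more than 2-fold had between 9.93% (Gm7221) and 53.1% of windows elsewhere. Of the 12 genes with more than 5% of windows elsewhere, 7 were more than 2-fold lower and the median log2 change was -1.01. Among the 7 genes with at most 5%, 0 were more than 2-fold lower, 3 were more than 1.5-fold lower, 6 were lower and the median log2 change was -0.58. Summed over these 7 genes, whose reads can be placed almost throughout, the estimated reads numbered 4702 in WT cells and 2684 in G34R cells. Scaled to the library totals, this was a log2 change of -0.53. Across the 19 genes the share of windows elsewhere and the log2 change had a Spearman correlation of -0.62 and a Pearson correlation of -0.51, given as a description since the genes share 2 libraries and common ancestry. The share of windows also went with the WT level (Spearman correlation 0.53). The part of shared reads in the size of the change was not tested.

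**Figure D3:**
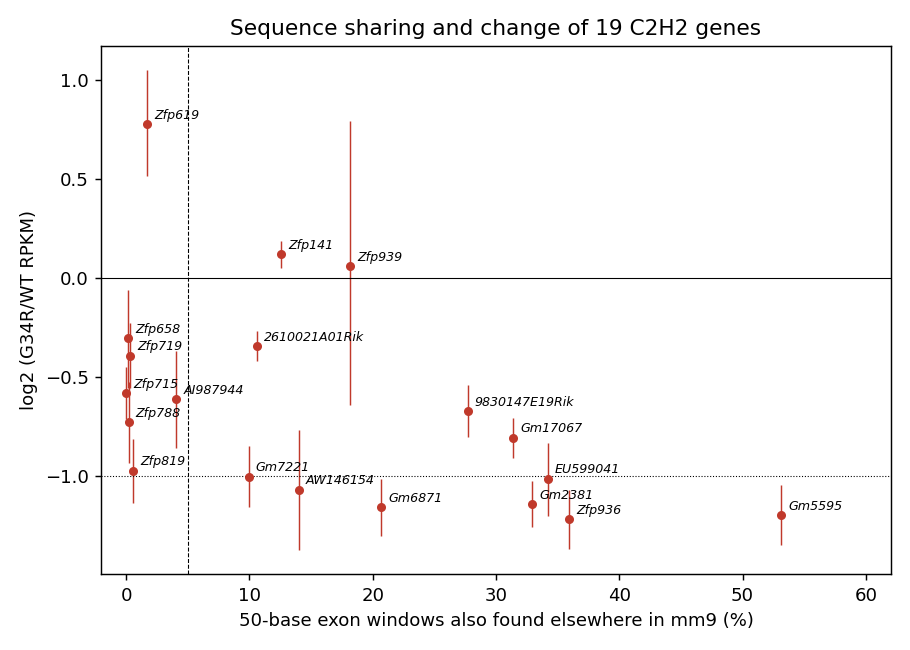
log2 (G34R/WT RPKM) of the 19 C2H2 genes against the percentage of their 50-base exon windows also found elsewhere in mm9; bars are 95% counting intervals, the dashed line marks 5% of windows and the dotted line a 2-fold lower level. The 7 genes left of the dashed line have a median of -0.58, and the 7 genes at or below the dotted line, including Gm7221 at -1.0, lie right of it.

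Along the chromosome the C2H2 genes lay in 3 stretches with more than 0.5 Mb between them. Zfp939 and Zfp619, which start at 46.7 and 46.8 Mb, were both at higher RPKM in G34R cells (median log2 change 0.42). After a gap of 1.86 Mb between gene starts, the 5 genes from AI987944 to Zfp788 (48.6 to 48.9 Mb) were all lower, 2 of them by more than 2-fold (median -0.73). In the last stretch, from Zfp141 to Zfp819 (49.7 to 50.9 Mb), 11 of 12 genes were lower and 5 by more than 2-fold (median -0.89), Zfp141 being the exception. Lower levels thus lay in the later stretches, apart from Zfp141. The first stretch holds only 2 genes at low levels, and of these the interval of Zfp939 included 0 while that of Zfp619 lay above it. Upstream of the first member, Gm16387 (start 46511994, 0 RPKM in both libraries), 97.6% of the bases back to 40 Mb are unknown in mm9, and no gene was listed there.

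**Figure D4:**
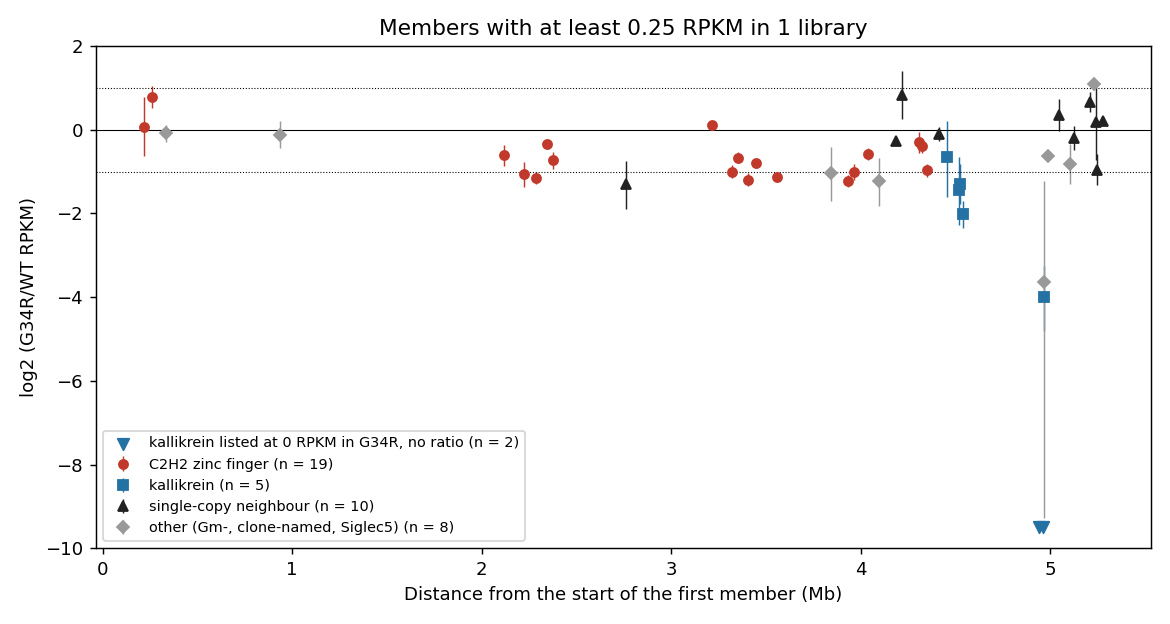
log2 (G34R/WT RPKM) of the 44 members past the filter against the distance of the gene start from the start of the first member, in Mb; bars are 95% counting intervals, dotted lines mark 2-fold and triangles at the bottom mark Klk1b3 and Klk1b5, listed at 0 RPKM in G34R cells. C2H2 genes from 2.12 to 4.35 Mb lie between -1.22 and 0.12, the kallikreins downstream of them go down to -3.99, and single-copy neighbours lie on both sides of 0.

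The Gm-named members other than the 5 C2H2 genes were mostly silent. Of these 16, 8 were listed at 0 in both libraries and 4 passed the filter. Gm10351, a gene model of 123 bases with no C2H2 motif, had 6.92 RPKM in WT cells, against 3.37 RPKM in G34R cells on 75 and 30 estimated reads, a log2 change of -1.04 [-1.70, -0.41]. Gm2058 (1.97 and 1.85 RPKM) and Gm6851 (4.92 and 4.54 RPKM) follow Zfp619, and 67.1% and 66.1% of their windows also occur elsewhere. Gm10109 overlaps Klk1 on the opposite strand and had 0.25 and 0.02 RPKM on 18 and 1 estimated reads.

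Single-copy neighbours past the filter differed little in the median. Of 20, 10 passed the filter, of which 5 were lower and 5 higher in G34R cells, with a median log2 change of 0.04. Etfb, which encodes a subunit of the mitochondrial electron transfer flavoprotein, had 28.40 RPKM in WT cells, against 23.67 RPKM in G34R cells, a log2 change of -0.26 [-0.35, -0.18]. It lies between Zfp715 and Zfp658. Ctu1, a tRNA thiolation enzyme that lies between Zfp819 and the kallikreins, had 3.26 and 3.03 RPKM, a log2 change of -0.11 [-0.27, 0.06]. Of these neighbours, the interval of Ctu1 included 0 and that of Etfb did not. Pold1, the catalytic subunit of DNA polymerase delta and the last member, had 18.50 and 21.37 RPKM, a log2 change of 0.21 [0.16, 0.25]. Josd2, a deubiquitinase, had 1.16 and 1.84 RPKM, a log2 change of 0.67 [0.43, 0.91]. The only one of the 10 past 2-fold was Hmg1l1 (0.93 and 0.38 RPKM, log2 change -1.29 [-1.90, -0.74]), a copy of Hmgb1 that RefSeq names as a pseudogene and that shares 51.1% of its windows with other sites. Of the others past the filter, Clec11a (0.69 and 0.88 RPKM), Iglon5 (0.19 and 0.34 RPKM) and Fam71e1 (0.22 and 0.25 RPKM) were higher in G34R cells, and Syt3 (0.84 and 0.73 RPKM) and Mybpc2 (0.66 and 0.34 RPKM) were lower. Under the filter, Lim2, Spib, Vstm2b, Vsig10l, Cldnd2 and Acpt were lower in G34R cells, and Shank1 and Lrrc4b were higher. The intervals of Lim2 (0.23 and 0.05 RPKM, log2 change -2.20 [-3.48, -1.07]) and Spib (0.18 and 0.04 RPKM, -2.17 [-3.51, -1.11]) lay below -1.

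Clone-named genes without C2H2 motifs went in both directions. 2310044H10Rik (Emc10 in RefSeq, a subunit of a membrane protein insertion complex of the endoplasmic reticulum) had 6.64 RPKM in WT cells, against 14.07 RPKM in G34R cells, and its log2 change of 1.08 [1.0, 1.17] was the largest among members with at least 1 RPKM. 2410002F23Rik had 7.04 and 4.57 RPKM, a log2 change of -0.62 [-0.69, -0.55]. 1700008O03Rik was low, at 0.37 and 0.21 RPKM. The 16 members downstream of Klk1, the last kallikrein, 9 of them past the filter, had a median log2 change of 0.18, with 4 lower and 5 higher. Beyond the limits of the region, the nearest genes were Plekhf1 (4.3 and 5.83 RPKM), Pop4 (8.08 and 18.89 RPKM) and Gm5591 (0 in both) on the centromeric side, and Nr1h2 (8.69 and 9.69 RPKM), Napsa (0.22 and 0.45 RPKM) and Gm15396 (0.13 and 0.06 RPKM) on the other.

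The kallikreins, a tandem family of secreted serine proteases downstream of Ctu1, had the lowest log2 changes in the region. Of 27 kallikrein genes, 17 were above 0 RPKM in WT cells and all 17 were lower in G34R cells, 11 of them listed at 0. Of all 18178 genes above 0 RPKM in WT cells, 58.6% were lower in G34R cells and 9.16% were listed at 0 there. Among the 17, 10 were under 0.25 RPKM in WT cells, all 10 were lower and 9 were listed at 0. Of all genes at such WT levels, 62.8% were lower and 30.2% were listed at 0 in the shallower G34R library. The upper limit of the counting interval lay above 0 for Klk5, Klk7, Klk9, Klk12, Klk14, Klk15, Klk1b9 and Klk1b11. These had 1 to 8 estimated WT reads each and cannot be told from no difference by counting alone. For Klk1b4 and Klk1b22 it lay below 0. The other 10 of the 27 kallikreins were listed at 0 in both libraries. Past the filter were 7 genes, all of them lower and 6 by more than 2-fold, with a median log2 change of -2.02. Klk1b3 and Klk1b5, listed at 0 in G34R cells, are among these 7, and without them 4 of 5 genes were more than 2-fold lower and the median was -1.44. Klk11 and Klk13 also reached 0.25 RPKM only in WT cells, and -1.44 is the value of Klk11, so this median too depends on the filter. Summed over the 27 genes the level was 11.57 RPKM in WT cells, against 2.22 RPKM in G34R cells, on 1145 and 203 estimated reads. The log2 change of these reads, scaled to the library totals, was -2.21.

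Klk1 (chr7:51480807-51484987, plus strand), the tissue kallikrein that releases kinins from kininogen, had 3.97 RPKM in WT cells, against 0.25 RPKM in G34R cells on 306 and 16 estimated reads. Its log2 change of -3.99 [-4.80, -3.25] was the lowest among members with at least 1 RPKM. Klk8 (neuropsin; chr7:51052947-51059192, plus strand), a protease known from brain and skin, had 4.19 and 1.03 RPKM, a log2 change of -2.02 [-2.36, -1.72]. These 2 genes held most of the family's RPKM in WT cells. Klk10 had 1.27 and 0.52 RPKM, a log2 change of -1.29 [-1.77, -0.82], and Klk11 had 0.46 and 0.17 RPKM, a log2 change of -1.44 [-2.28, -0.65]. Klk13 had 0.36 and 0.23 RPKM on 33 and 17 reads, and the interval of its log2 change, -0.65 [-1.61, 0.21], included 0. No window of Klk8, Klk10, Klk11 or Klk13 occurred elsewhere, while 31.1% of those of Klk1 did. Of the 14 Klk1b genes, the mouse paralogs of Klk1, 6 had 0.03 to 0.32 RPKM in WT cells and 0 were above 0 in G34R cells. Klk1b3 and Klk1b5, at 0.32 RPKM each in WT cells, passed the filter through their WT values, on 25 and 24 estimated reads. No fold is given for them because they were listed at 0 in G34R cells. The WT values of the 6 genes rest on about 80 estimated reads in all.

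**Figure D5:**
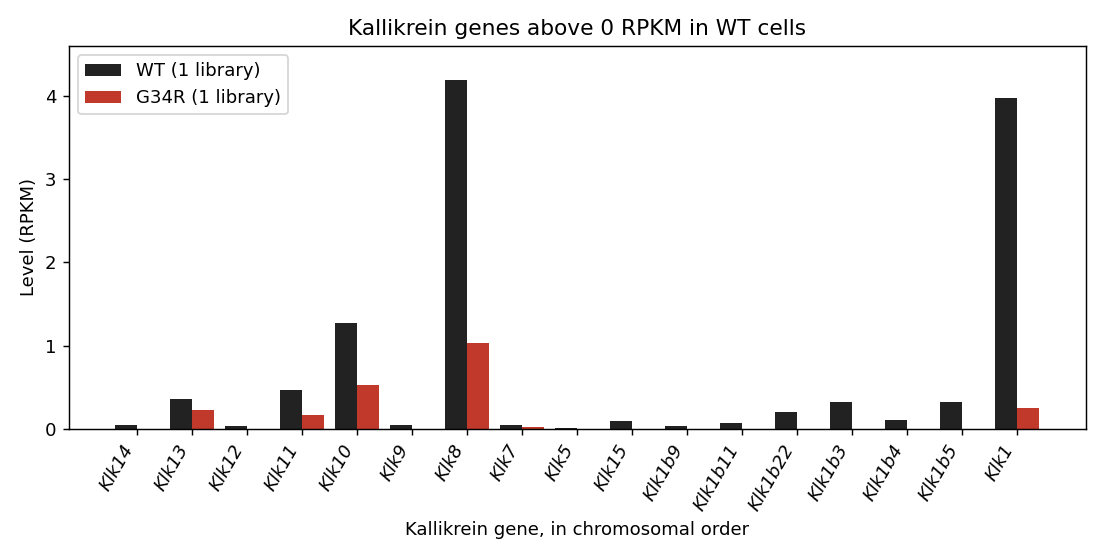
Levels in RPKM of the 17 kallikrein genes above 0 RPKM in WT cells, in chromosomal order; black bars are WT cells and red bars G34R cells, 1 library each. Klk8 (4.19 and 1.03 RPKM) and Klk1 (3.97 and 0.25 RPKM) stand highest in WT cells, and 11 genes have no red bar.

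The other tandem families were close to silent. The 8 Vmn2r genes, which encode vomeronasal pheromone receptors, reached 0.03 RPKM at most, with 5 listed at 0 in both libraries. Of 5 Siglec, Cd33 and Ceacam genes, only Siglec5, a sialic acid-binding receptor of immune cells, passed the filter. It did so through its WT value, with 0.42 RPKM in WT cells, against 0.18 RPKM in G34R cells (log2 change -1.22 [-1.82, -0.67]).

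The C2H2 members are set beside all other genes with at least 3 C2H2 motifs, which is a broader kind. In the annotation 170 of 626 such genes matched the pattern of KRAB residues, against 15 of the 19 in the region. KRAB genes outside the region were not counted apart. Of 606 C2H2 genes outside the region, 520 passed the filter, 322 (61.9%) were lower in G34R cells, 149 (28.7%) by more than 1.5-fold and 72 (13.8%) by more than 2-fold, with a median log2 change of -0.22. In the region the shares were 63.2% by more than 1.5-fold and 36.8% by more than 2-fold, with a median of -0.73. Genes named Zfp, Zik, Zscan, Zkscan or Znf and a number outside the region include Zscan4c, Zscan4d and Zscan4f. Of these genes, 37 of 352 past the filter (10.5%) were more than 2-fold lower and the median was -0.16. Of the 9 so named in the region, 1 was (Zfp936), with a median of -0.39. These values stand side by side without a test, since the region was picked for its low values.

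Of 22 genes that act with KRAB zinc finger proteins or on H3K9me3 and H3.3, all passed the filter, with a median log2 change of -0.02. More than 2-fold lower were 0, where 9.64% of all genes past the filter were. More than 2-fold higher was 1, where 5.79% of all genes were. With 22 genes, nothing is read from these counts. Suv39h1, an H3K9 methyltransferase, was the 1 past 2-fold, at 1.57 RPKM in WT cells, against 3.36 RPKM in G34R cells. Trim28, the cofactor bound by the KRAB domain, had 326.77 and 222.49 RPKM, a log2 change of -0.55. Setdb1, the methyltransferase it recruits, had 15.06 and 15.25 RPKM, a log2 change of 0.02. Smarcad1, a remodeller that works with Trim28, had 22.75 and 12.07 RPKM, a log2 change of -0.91. Atrx (log2 change 0.60) and Ehmt2 (0.56) were higher in G34R cells, and Kdm4b (-0.52) and Morc3 (-0.52) were lower.

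Markers of other cell states also differed between the libraries. The 3 genes of the 2-cell-like list that were found, Zscan4c, Zscan4d and Zscan4f, summed to 3.83 RPKM in WT cells, against 0.2 RPKM in G34R cells. Of 6 primitive endoderm markers, 5 passed the filter, Sox17 only through its G34R value (0.18 and 0.56 RPKM). More than 2-fold higher in G34R cells were 3 (Sox17, Gata4 and Gata6), where 5.79% of all genes past the filter were. Foxa2, under the filter, was lower (0.13 and 0.07 RPKM), and the 6 markers summed to 1.91 and 4.07 RPKM. Of 6 feeder fibroblast markers, 2 passed the filter, Thy1 (1.18 and 0.71 RPKM) and Acta2 (0.74 and 0.03 RPKM), Postn was listed at 0 in both libraries, and the list summed to 2.22 and 0.97 RPKM. The part of these states in the C2H2 and kallikrein values was not tested.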

How the data were processed

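RNA from WT and G34R ES cells was sequenced as 1 stranded total RNA library per line. The authors aligned 50 bp single-end reads to mm9 with STAR 2.4.2a, counted the primary placement of each read in Seqmonk on the strand of each gene, with 1 length-scaled value for all isoforms of a gene, and deposited RPKM per gene to 2 decimals. Reads shared between similar copies may be placed on either copy. RPKM depends on the total of the library.

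The log2 ratio of G34R to WT RPKM was taken from the deposited values, with a floor of 0.01 RPKM, a filter of at least 0.25 RPKM in 1 sample and a 2-fold threshold. Library totals were estimated from steps in the RPKM of genes with 1 exon under 500 bp with at most 6 reads. The 55 values in WT cells and 45 in G34R cells were all whole reads within the rounding of 2 decimals. By unrelated values, 33.2% and 28.1% would be at a fixed total. Each total was picked to make this share highest, so the share is no independent check. The method was tested on simulated data. Reads per gene are estimates from RPKM, exon length and this total. PCR duplicates were not separated, so intervals cover counting error only.

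All 103 members matched a GENCODE M1 gene (NCBIM37, the same build as mm9) with the same start and end. A C2H2 motif was C, 2 to 4 residues, C, 12 residues, H, 3 to 5 residues and H, searched in the translated coding sequence, as was a pattern of KRAB residues. Windows of 50 bases from merged exons were looked up on both strands of the genome. The most common coding exon length among the C2H2 genes, 127 bases, was that of the KRAB exon, and these exons were compared base by base. RefSeq names were taken from a table of gene names.

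Single-copy neighbours are members that are not Zfp-, Gm- or clone-named and not of a named tandem family. The members and gene lists were chosen with earlier results of these data known. Named genes were those of the rule that defined the region, zinc finger and Gm-named members past the filter (at most 25), single-copy and clone-named members with at least 1 RPKM (at most 15), the first and last member, 3 genes beyond each limit, and the largest and smallest ratio; other members were named after their values were seen. No test was run, since there was 1 library per line. Alternatives were other pseudocounts, scalings, filters, thresholds and gene classes. Python 3.11.15, NumPy 2.4.6, pandas 2.3.3, SciPy 1.17.1 and matplotlib 3.10.9 were used. ChIP-seq was not analysed here.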

Additional observations from a re-analysis of the deposited data

How the results depend on the processing

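With 1 library per line there was no replicate to leave out. No paired analysis was possible because the result comes from no test. The median log2 change stayed below 0 under every alternative run for the Zfp- and Gm-named genes (-0.81 to -0.35, against -0.77) and the C2H2 genes (-0.81 to -0.46, against -0.73). For the single-copy neighbours (0.04) it changed sign with 1 RPKM added (-0.0225) and with no filter (-0.15). With no filter the neighbours under 0.25 RPKM enter, of which more were lower than higher in G34R cells. The median near 0 thus holds only for neighbours past a filter. The sign change with 1 RPKM added was not examined further.

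The 7 Zfp- and Gm-named genes more than 2-fold lower became 1 with 1 RPKM added, 1 at 3-fold, 1 with Zfp names alone and 1 with at most 5% of windows elsewhere. The 0 more than 2-fold higher became 1 at 1.5-fold. The 7 C2H2 genes became 1 with 1 RPKM added, 12 at 1.5-fold, 0 at 3-fold and 0 with at most 5% of windows elsewhere. The 6 kallikreins became 2 with 1 RPKM added, 15 with no filter, 3 with at least 1 RPKM and 3 with at most 5% of windows elsewhere. The 1 single-copy neighbour became 0 with 1 RPKM added, 5 with no filter, 0 with at least 1 RPKM, 2 at 1.5-fold and 0 at 3-fold. Added RPKM shrinks the ratios of low genes, and the other settings count other genes by construction. Rescaling to the same RPKM sum or centring left 5 of the 7 C2H2 genes past 2-fold. Of 150 values of 30 named genes under 5 alternatives, 133 stayed within the counting interval, 15 of the 17 outside it had 1 RPKM added, and 0 changed sign.

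The alternative that counts C2H2 motifs in RefSeq proteins was not run. Motifs in GENCODE M1 coding sequences took its place, and the C2H2 and kallikrein counts were also added, all chosen after seeing the data. Values near the 0.01 RPKM floor rest on about 1 read per kilobase.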
